A study of Mus musculus with 56 samples.

Results

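The 9 genes described here were Ppargc1a, Ppargc1b, Esrra, Esrrg, Nrf1, Tfam, Perm1, Ppara and Ppard, chosen by name as the PGC-1 coactivators and the regulators of mitochondrial and fat oxidation genes that work with them. The choice was made with earlier results of these data known. All 9 were present in the deposited table of 15539 genes, and all 9 were among the 14321 that passed the filter on low counts. Gastrocnemius muscle of 56 C57Bl/6 mice had been sequenced, with 7 mice in each of 8 groups that combined sex, genotype and wheel. All mice were fed chow 5015 and held with a locked or a freely turning running wheel, which the labels place between 10 and 20 weeks of age, with 5 months also given as the age. HuRm-/- mice carried floxed alleles of Elavl1, the gene of the RNA-binding protein HuR, and Cre recombinase under the Mlc1f promoter, which is active in skeletal muscle fibres and not in the other cells of the muscle. Controls were floxed mice (HuRfl/fl) from the same litters. The questions were whether the wheel raised these transcripts and whether the HuRm-/- label altered that response.

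PGC-1α (Ppargc1a) and PGC-1β (Ppargc1b) are transcriptional coactivators that bind no DNA themselves and act through partner factors. Their partners include the estrogen-related receptors ERRα (Esrra) and ERRγ (Esrrg), the fatty acid sensing receptors PPARα (Ppara) and PPARδ (Ppard), and nuclear respiratory factor 1 (Nrf1), which drives Tfam, the packaging and transcription factor of mitochondrial DNA. Perm1 is a muscle protein induced by PGC-1 and ERR that regulates oxidative genes. In skeletal muscle, contraction induces Ppargc1a transiently, and endurance training is known to raise mitochondrial content.

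Elavl1 was not lower in mice labelled HuRm-/-, with 37.9 to 69.8 CPM (counts in each 1e+06 of the library total, scaled by the TMM method, median 52.5) against 27.8 to 61.9 CPM (median 49.4) in controls. Fitted over all groups, labelled mice had 109% of the control level (95% interval 101 to 119%, limma adjusted p = 0.150), and 19 of 28 labelled mice lay above the median of their control group. The lowest 2 of the 56 mice were running control males, mouse 13 (27.8 CPM) and mouse 10 (30.8 CPM). Counts per gene do not show whether the deleted exon was read, so "HuRm-/-" below is the label of a library. Total counts ran from 6639782 to 21633091 per mouse (median 12380363), each sex label matched its sex-linked transcripts in 56 of 56 mice, and all 12 skeletal muscle markers were present, with a summed level of 109471 to 144612 CPM. Marker sums, here and below, are in CPM without TMM scaling.

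The promoters of 3 of the 4 genes called as higher with the wheel are shown first, because the wheel results turn on these genes. Each runs from 250 bases before to 50 bases after the RefSeq start (GRCm38.p6) and is written in the direction of transcription, with a MEF2 motif in capitals where one was found. MEF2 factors are activated by contraction and act on many muscle genes.
Ppargc1a, chr5:51567676-51567975, minus strand: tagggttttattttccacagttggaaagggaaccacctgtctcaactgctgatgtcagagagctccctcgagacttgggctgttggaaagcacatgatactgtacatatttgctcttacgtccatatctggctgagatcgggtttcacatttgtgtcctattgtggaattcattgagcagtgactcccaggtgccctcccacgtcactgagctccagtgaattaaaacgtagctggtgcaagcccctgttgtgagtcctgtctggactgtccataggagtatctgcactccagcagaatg
Esrrg, first of 4 start sites, chr1:187608756-187609055, plus strand: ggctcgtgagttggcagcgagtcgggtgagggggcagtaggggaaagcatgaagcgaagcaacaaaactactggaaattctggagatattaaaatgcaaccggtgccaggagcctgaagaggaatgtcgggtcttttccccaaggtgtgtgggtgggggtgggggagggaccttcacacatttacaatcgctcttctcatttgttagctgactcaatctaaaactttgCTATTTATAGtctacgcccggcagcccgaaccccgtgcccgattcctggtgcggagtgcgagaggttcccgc
Perm1, chr4:156215677-156215976, plus strand: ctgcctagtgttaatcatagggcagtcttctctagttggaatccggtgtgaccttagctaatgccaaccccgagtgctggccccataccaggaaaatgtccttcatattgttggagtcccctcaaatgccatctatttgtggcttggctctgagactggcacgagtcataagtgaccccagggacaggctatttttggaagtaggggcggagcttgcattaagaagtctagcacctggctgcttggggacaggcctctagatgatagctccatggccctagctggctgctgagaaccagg
The search covered both strands for 6 motifs, namely the ERR half-site TNAAGGTCA, the CRE TGACGTCA, the ETS motif CCGGAAGT, NRF1 (GCGC, any 2 bases, GCGC), the PPAR direct repeat (AGGTCA, any 1 base, AGGTCA) and MEF2 (CTA, any 4 bases, TAG). The direct repeat contains the last 6 letters of the ERR half-site. Over the 12 windows available for 8 of the genes, 3 held a motif. The first of the 4 Esrrg windows held MEF2 at -22 to -13, a match on both strands, and the other Esrrg windows held no motif. MEF2 occurred in 3.69% of all 32851 windows and in 4.23% of genes. The Tfam window held the ETS motif at -47 to -40 (3.89% of all windows), and the Ppara window the NRF1 motif at -31 to -22 (6.22%). The other motifs, found in 1.28% (ERR), 1.79% (CRE) and 0.0396% (PPAR) of all windows, did not occur in these letters of the 12 windows.

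Averaged over sex and genotype, running raised 4 of the 9 genes and lowered 0. Of all genes tested, 5.96% were called in this contrast (p adjusted by Benjamini-Hochberg, threshold 0.05), 3.42% as higher and 2.54% as lower. The 4 were Ppargc1a, Ppargc1b, Esrrg and Perm1. The fold change was positive for 8 of the 9 genes, with a median of 0.15 on the log2 scale against 0.01 over all genes.

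Ppargc1b, the coactivator that shares most targets with PGC-1α, rose by 24.2% (log2 fold change 0.31, standard error 0.05, limma adjusted p = 9.38e-06), and 23 of 28 running mice lay above the median of their locked-wheel group. In female controls it was 29.9 to 38.0 CPM (median 34.9) with the running wheel and 21.4 to 24.8 CPM (median 22.4) with the locked wheel. In female HuRm-/- mice the range was 29.4 to 44.0 CPM (median 34.4) with running and 16.99 to 27.7 CPM (median 23.2) without. Every running female was thus above every locked-wheel female of the same genotype. Male controls had 25.8 to 33.4 CPM (median 28.1) with running and 21.98 to 28.8 CPM (median 25.1) without. Male HuRm-/- mice had 23.6 to 34.9 CPM (median 29.4) with running and 26.7 to 38.7 CPM (median 32.6) without, so that running and locked mice overlapped in both male genotypes.

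Ppargc1a, the coactivator best known for its induction by exercise, rose by 11.3% (log2 fold change 0.15, standard error 0.05, limma adjusted p = 0.0419), with 25 of 28 running mice above the locked-wheel median. Female HuRm-/- mice ranged from 42.2 to 58.9 CPM (median 45.2) with running and from 32.2 to 41.1 CPM (median 36.1) without, and the ranges did not overlap. In female controls the values were 44.8 to 66.1 CPM (median 49.2) and 31.6 to 58.5 CPM (median 45.3). Running and locked males overlapped, at 56.2 to 68.9 CPM (median 61.4) against 48.9 to 67.8 CPM (median 56.8) in controls and at 45.8 to 61.8 CPM (median 48.3) against 45.1 to 65.5 CPM (median 46.6) in HuRm-/- mice. This call was the least firm of the 4, and it held in 26 of the 56 fits that each left out 1 mouse (limma adjusted p 0.0234 to 0.0761). It was also lost with DESeq2 size factors and with adipocyte markers as a covariate (0.14, limma adjusted p = 0.0741).

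Esrrg, the receptor that is abundant in oxidative fibres, rose by 26.4% (log2 fold change 0.34, standard error 0.08, limma adjusted p = 0.00821), with 22 of 28 running mice above the locked-wheel median. Male controls had 12.2 to 21.1 CPM (median 18.2) with running against 9.20 to 15.3 CPM (median 11.8) without, and 5 of the 7 running mice exceeded every locked mouse. Male HuRm-/- mice had 8.61 to 19.2 CPM (median 13.4) against 6.97 to 13.9 CPM (median 9.83). In females the running and locked values were 12.8 to 30.6 CPM (median 18.9) against 14.3 to 22.02 CPM (median 17.8) in controls and 13.8 to 27.2 CPM (median 19.2) against 10.2 to 17.4 CPM (median 14.6) in HuRm-/- mice. Running and locked ranges overlapped in each sex and genotype.

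Perm1 rose by 20.1% (log2 fold change 0.26, standard error 0.07, limma adjusted p = 0.0151), with 22 of 28 running mice above the locked-wheel median. Its values were 52.2 to 98.7 CPM (median 93.3) with running and 50.1 to 86.1 CPM (median 75.0) without in male controls, and 52.0 to 99.4 CPM (median 75.5) and 50.4 to 64.3 CPM (median 59.1) in female controls. In HuRm-/- mice they were 50.7 to 71.8 CPM (median 59.2) and 42.2 to 78.4 CPM (median 57.9) in males, and 43.2 to 80.8 CPM (median 59.8) and 33.2 to 58.6 CPM (median 48.4) in females. Of the 7 running mice, 5 male controls, 6 female controls, 4 female HuRm-/- and 0 male HuRm-/- mice exceeded every locked mouse of their group.

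**Figure D1:**
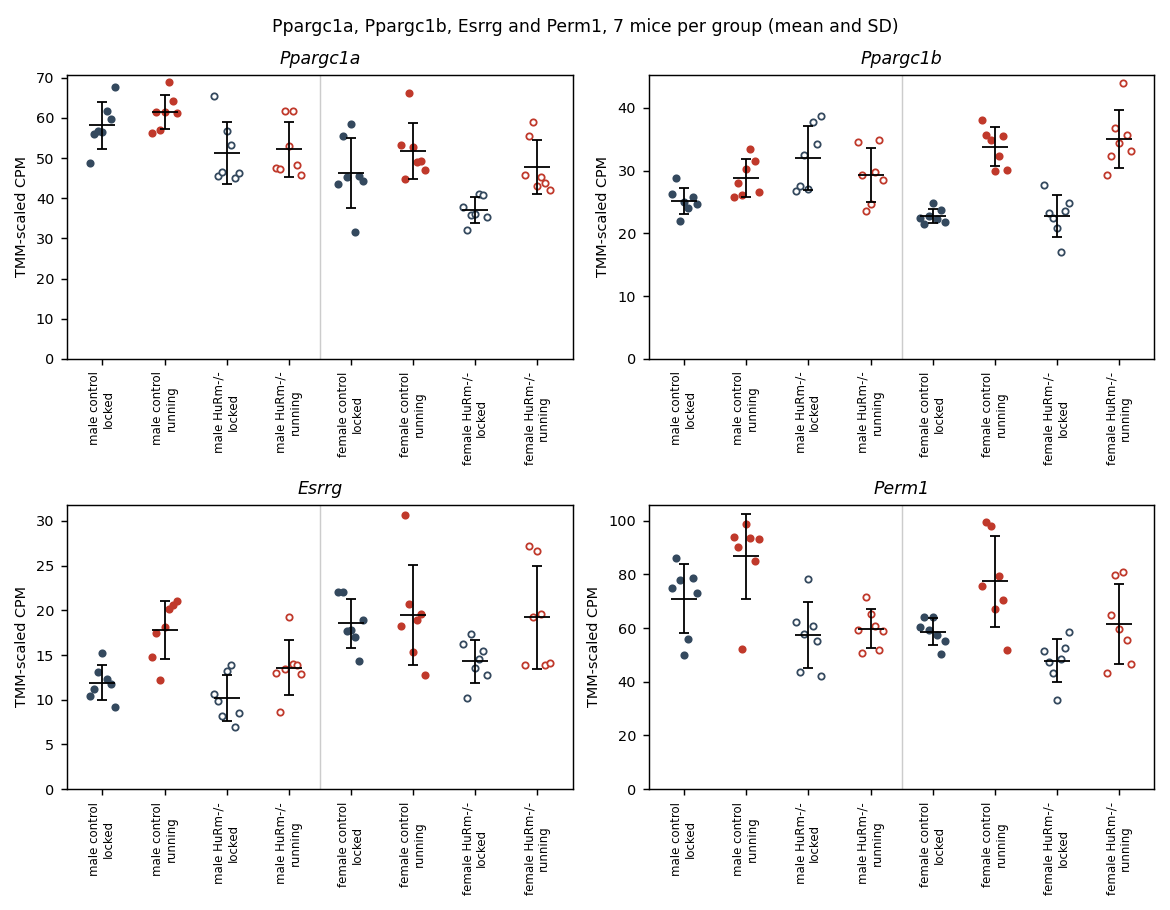
TMM-scaled CPM of Ppargc1a, Ppargc1b, Esrrg and Perm1 (vertical axes, from 0) in each of the 8 groups, with a point for each of the 7 mice of a group and a bar for the mean and SD (red for the running and dark blue for the locked wheel, filled for controls and open for HuRm-/-). Ppargc1b of running females lies at 29.4 CPM or more in both genotypes, above the 27.7 CPM that no locked-wheel female exceeded.

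The other 5 genes were not called. Esrra, the receptor that forms a feed-forward loop with PGC-1α, had a log2 fold change of 0.06 (95% interval -0.05 to 0.18, limma adjusted p = 0.607). For Nrf1 and Tfam the changes were -0.02 (-0.16 to 0.12, limma adjusted p = 0.918) and 0.01 (-0.10 to 0.11, limma adjusted p = 0.963). These intervals contain no rise above 0.18 on the log2 scale. Ppara and Ppard had 0.15 (-0.03 to 0.33, limma adjusted p = 0.356) and 0.14 (0.002 to 0.29, limma adjusted p = 0.243), intervals that include the fitted changes of Ppargc1a and Perm1. That of Ppard ends below the values of Ppargc1b and Esrrg, and that of Ppara below the value of Esrrg. Nrf1 and Ppard had the fewest counts, 53 to 196 and 36 to 172 per mouse.

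Liver markers moved with the wheel. Of 18 liver transcripts, all in the table, 7 were lower in running mice and 0 higher, and their summed level was 24.7 to 4046 CPM in locked mice and 25.4 to 704 CPM in running mice. With the mean of these markers as a covariate, 2 of the 9 genes were called, Ppargc1b (log2 fold change 0.28, limma adjusted p = 0.000703) and Esrrg (0.38, limma adjusted p = 0.0110), while Ppargc1a (0.15, limma adjusted p = 0.109) and Perm1 (0.21, limma adjusted p = 0.137) were not. The part of the liver markers in the result was not tested further. Markers of other lists were called too, against 3.42% of all genes higher and 2.54% lower. Of 12 skeletal muscle markers 5 were lower in running mice and 1 higher. Of 10 slow-fibre markers 2 were higher and 0 lower, and of 10 adipocyte markers 0 were higher and 1 lower.

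Within single groups Ppargc1b was called in females of both genotypes and each other call was made in 1 group. No test of a difference between single groups was made except those by label and by sex given below. In male controls, where 3.24% of all genes were called, Esrrg rose (log2 fold change 0.58, 95% interval 0.24 to 0.92, limma adjusted p = 0.0421, above the locked median in 7 of 7 running mice). Without the pair of running control males of lowest Elavl1 the value was 0.68 (limma adjusted p = 0.0465). This call was lost with slow-fibre markers as a covariate, where the fold change was 0.58 (limma adjusted p = 0.0566), and when any 1 of 10 mice was left out, locked mice 16, 17, 20, 29 and 31 and running mice 10, 25, 26, 27 and 28 (highest limma adjusted p = 0.121). In female controls, where 8.74% were called, Ppargc1b rose (0.57, 0.37 to 0.76, limma adjusted p = 0.000199) and so did Ppard (0.52, 0.20 to 0.83, limma adjusted p = 0.0294), each above the median in 7 of 7 running mice. Ppard was 6.89 to 8.92 CPM (median 7.67) with running and 3.47 to 6.67 CPM (median 5.94) without. The Ppard call was lost when locked mouse 20 or 32 or running mouse 1 or 26 was left out (highest limma adjusted p = 0.0882) and with adipocyte (0.41, limma adjusted p = 0.204) or liver markers (0.46, limma adjusted p = 0.110) as a covariate. Its locked control females were also the lowest of the 8 groups for this gene.

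In female HuRm-/- mice, with 3.85% of genes called, Ppargc1b (0.62, 0.43 to 0.81, limma adjusted p = 2.82e-05) and Ppargc1a (0.36, 0.16 to 0.55, limma adjusted p = 0.0245) rose, both above the median in 7 of 7 running mice. The Ppargc1a call was lost without locked mouse 14 or running mouse 3 or 7 (highest limma adjusted p = 0.0723) and in a fit of only the compared groups (limma adjusted p = 0.0629). Esrra (0.36, 0.12 to 0.59, limma adjusted p = 0.0769) and Ppara (0.51, 0.16 to 0.86, limma adjusted p = 0.0877) had intervals above 0 and missed the threshold, as did Esrrg (0.35, 0.03 to 0.67, limma adjusted p = 0.226) and Perm1 (0.34, 0.05 to 0.62, limma adjusted p = 0.197). Perm1 likewise had 0.36 in female controls (0.07 to 0.64, limma adjusted p = 0.111), called by DESeq2, with quality weights and in a fit of only the compared groups, and 0.29 in male controls (0.01 to 0.56, limma adjusted p = 0.275). In male HuRm-/- mice, with 0.0419% of genes called, 0 of the 9 genes passed, and the largest value was that of Esrrg (0.41, 0.05 to 0.78, limma adjusted p = 0.325). Summed liver markers of females were 136 to 4046 CPM in locked and 42.1 to 225 CPM in running controls, and 38.0 to 2081 CPM in locked and 37.0 to 103 CPM in running HuRm-/- mice.

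**Figure D2:**
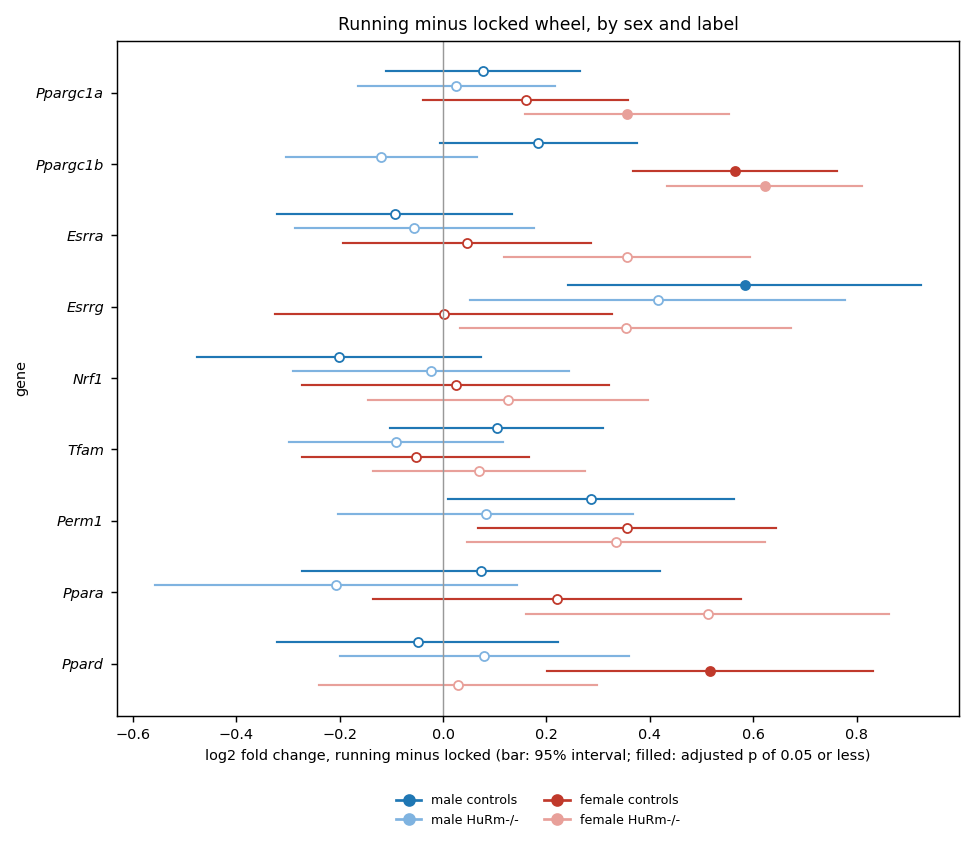
Log2 fold change of running minus locked wheel (horizontal axis) for each gene, in male and female controls and HuRm-/- mice, with bars for the 95% interval and filled points for an adjusted p of 0.05 or less. The 5 filled points are Esrrg in male controls, Ppargc1b and Ppard in female controls, and Ppargc1a and Ppargc1b in female HuRm-/- mice.

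No difference between the labels was detected in the wheel response of the 9 genes. The difference between labels, averaged over the sexes, was called for 0 of them and for 0.00698% of all genes, and for 0 of the 9 in males and in females, where 0.0349% and 0% of all genes were called. By an unadjusted p under 0.05 it was 0 of 9 over both sexes, 1 in males (Ppargc1b) and 1 in females (Ppard). Of all 14321 genes, 1613 passed this unadjusted threshold over both sexes, 1275 in males and 1472 in females. At the adjusted threshold edgeR and DESeq2 also called 0 of the 9. The differences are given as the log2 fold change in HuRm-/- minus that in controls, and were positive for 3 of the 9 genes in males and 7 in females. In males Ppargc1b had -0.30 (95% interval -0.57 to -0.04, limma adjusted p = 0.505). In females Ppard had -0.49 (-0.90 to -0.07, limma adjusted p = 0.415) and Esrrg 0.35 (-0.10 to 0.81). Averaged over the sexes, they ran from -0.18 for Ppard (95% interval -0.46 to 0.11) to 0.17 for Esrra (-0.06 to 0.41). For Ppargc1a the difference was 0.07 (-0.12 to 0.27, limma adjusted p = 0.818), and for Ppargc1b it was -0.12 (-0.31 to 0.07, limma adjusted p = 0.641). Perm1 and Esrrg had -0.11 (-0.40 to 0.17) and 0.09 (-0.25 to 0.43). These intervals are wide enough to include differences as large as the wheel effects themselves.

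The wheel response differed by sex for 1 of the 9 genes, while 13.7% of all genes were called in that contrast. The rise of Ppargc1b was larger in females by 0.56 on the log2 scale (95% interval 0.37 to 0.75, limma adjusted p = 3.86e-05). Male log2 fold changes were 0.18 (-0.01 to 0.38, limma adjusted p = 0.322) in controls and -0.12 (-0.30 to 0.07, limma adjusted p = 0.632) in HuRm-/- mice, beside 0.57 and 0.62 in females. The values without the pair of low-Elavl1 males (0.55, limma adjusted p = 0.000104) and with adipocyte, liver or slow-fibre markers as a covariate (0.60, 0.53 and 0.56) stayed close to this. Ppara (0.43, 0.08 to 0.78, limma adjusted p = 0.0906), Esrra (0.28, 0.04 to 0.51, limma adjusted p = 0.109) and Ppargc1a (0.21, 0.01 to 0.40, limma adjusted p = 0.152) had larger values in females that did not pass. Esrrg had the opposite sign (-0.32, -0.66 to 0.02, limma adjusted p = 0.213). In the same contrast 6 of 12 skeletal muscle markers were called as higher and 0 as lower (their mean differed by 0.19 on the log2 scale, pooled SD 0.09), and 4 of 10 adipocyte markers as lower and 0 as higher (-0.71, pooled SD 0.46). Summed skeletal muscle markers were 123046 to 144612 CPM in locked and 112440 to 144235 CPM in running males, and 111753 to 134912 CPM in locked and 109471 to 138141 CPM in running females. The part of the skeletal muscle markers in the Ppargc1b result was not tested.

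**Figure D3:**
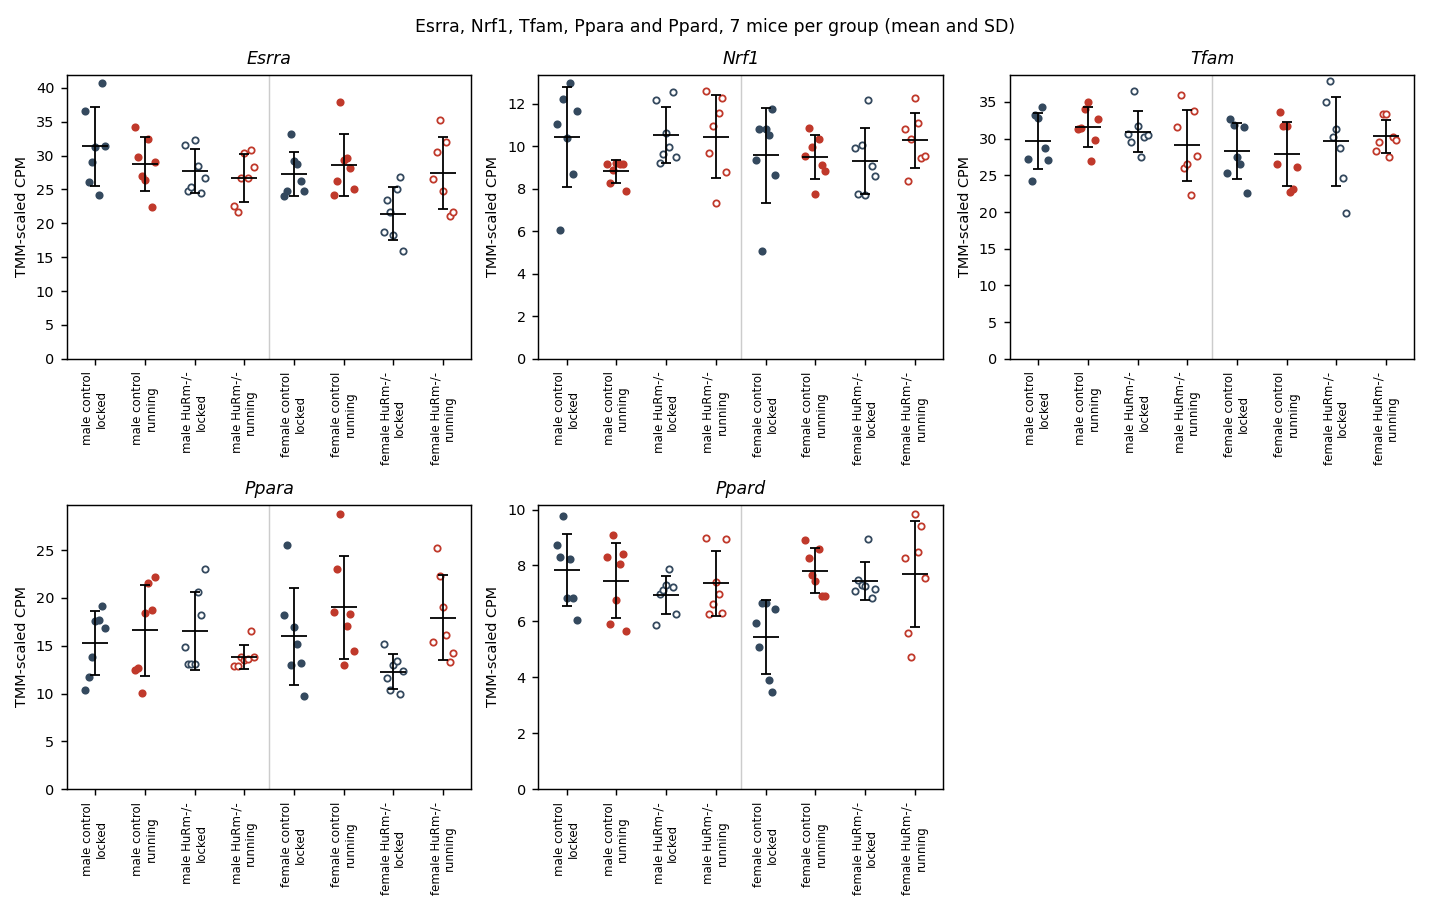
TMM-scaled CPM of Esrra, Nrf1, Tfam, Ppara and Ppard (vertical axes, from 0) in the 8 groups, with a point per mouse and a bar for the mean and SD, in the same colours as the plot of the 4 called genes. Ppard of female controls lies at 6.67 CPM or less with the locked wheel and at 6.89 CPM or more with the running wheel, and the groups overlap for the other 4 genes.

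The label itself went with lower levels of 4 of the 9 genes and higher levels of 0, averaged over sex and wheel. Over all genes 11.8% were called, 7.41% as lower and 4.43% as higher, so that 37.4% of the called genes were higher, or 48.1% with upper-quartile scaling. Perm1 fell most, by 22.5% (log2 fold change -0.37, standard error 0.07, limma adjusted p = 0.000253), and 25 of 28 labelled mice lay below the median of their control group. Ppargc1a was 13.8% lower (-0.21, 0.05, limma adjusted p = 0.00153, 22 of 28 mice). Esrra was 11.4% lower (-0.17, 0.06, limma adjusted p = 0.0402, 20 of 28) and Esrrg 15.7% lower (-0.25, 0.08, limma adjusted p = 0.0438, 21 of 28). The Esrra and Esrrg calls held in 30 and 24 of the 56 fits without 1 mouse, neither was called with upper-quartile scaling, Esrrg was not called with adipocyte markers as a covariate (-0.24, limma adjusted p = 0.0705), and Esrra was not called without both low-Elavl1 males (-0.18, limma adjusted p = 0.0518). Ppargc1b, the paralogue of Ppargc1a, had 0.09 (-0.001 to 0.19, limma adjusted p = 0.210) and was not called, and neither Nrf1, Tfam, Ppara nor Ppard passed.

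Among locked-wheel mice 5.07% of genes were called for the label, and of the 9 only Ppargc1a was (-0.25, -0.39 to -0.11, limma adjusted p = 0.0222). In running mice 4.82% were called, and of the 9 only Perm1 (-0.42, -0.62 to -0.23, limma adjusted p = 0.00743). Perm1 of locked mice (-0.31, -0.52 to -0.11, limma adjusted p = 0.0594) and Ppargc1a of running mice (-0.18, -0.31 to -0.04, limma adjusted p = 0.111) had intervals that overlap these, and the difference between wheels is the label-by-wheel contrast above, which was not called. Within each sex and wheel, the label called 1.15% of all genes in locked males and 0.384% in locked females. It called 2.63% in running males and 0% in running females. Of the 9, only Perm1 in running males was called (-0.52, limma adjusted p = 0.0274). In running females Esrrg had -0.01 (-0.32 to 0.31) and Esrra -0.06 (-0.30 to 0.17). In running males Esrrg had -0.39 (-0.72 to -0.07), and in locked females Esrra had -0.37 (-0.62 to -0.13). Other uncalled values were rises. Ppard had 0.46 in locked females (0.15 to 0.77, limma adjusted p = 0.142). Ppargc1b had 0.32 in locked males (0.13 to 0.51, limma adjusted p = 0.0770). Of the 9 fold changes, 4 were positive in locked males, 3 in locked females, 2 in running males and 3 in running females.

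Slow-fibre markers moved with the label. Of 10 such transcripts, all in the table, 7 were higher in labelled mice and 0 lower, with a summed level of 827 to 2246 CPM in controls and 856 to 2852 CPM in labelled mice. With their mean as a covariate the label calls of all 4 genes were lost, at -0.26 for Perm1 (limma adjusted p = 0.275), -0.17 for Ppargc1a (0.298 as limma adjusted p), -0.10 for Esrra (limma adjusted p = 0.690) and -0.26 for Esrrg (limma adjusted p = 0.390). Over all genes that fit called 1 gene for the label instead of 1695. How far fibre type accounts for the label differences was not tested.

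**Figure D4:**
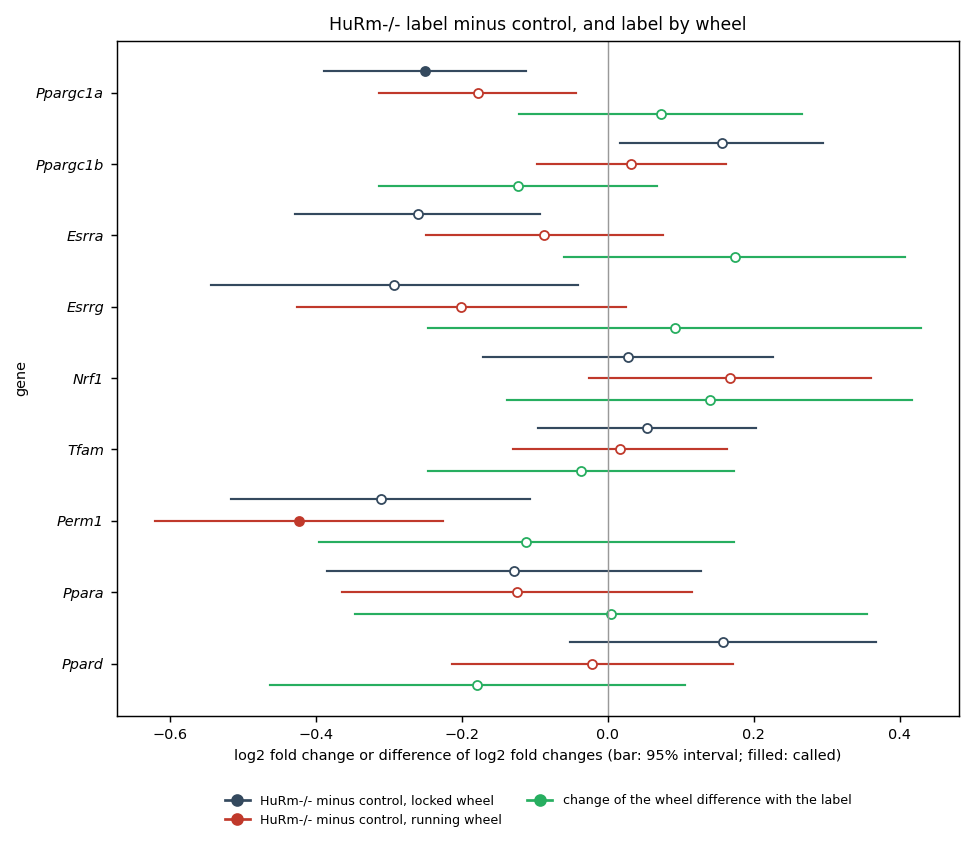
Log2 fold change of HuRm-/- minus control in locked-wheel mice (dark blue) and running mice (red), and the change of the wheel difference with the label (green), for each gene, with bars for the 95% interval and filled points for an adjusted p of 0.05 or less. Filled points are those of Ppargc1a with the locked wheel (-0.25) and Perm1 with the running wheel (-0.42). All values are averaged over the sexes, and each green interval includes 0.

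Between the sexes, with 33% of all genes called, Ppargc1a was 18.7% lower in females (log2 fold change -0.30, standard error 0.05, limma adjusted p = 1.32e-06), below the male median in 24 of 28 females. Esrrg was 35.5% higher in females (0.44, 0.08, limma adjusted p = 3.09e-05, 26 of 28). Locked HuRm-/- females (32.2 to 41.1 CPM) lay below every locked HuRm-/- male (45.1 to 65.5 CPM) for Ppargc1a. Of 10 slow-fibre markers 9, and of 10 adipocyte markers 8, were also higher in females, with adipocyte sums of 1598 to 4617 CPM in males and 3191 to 6297 CPM in females. Both sex calls stood with either list as a covariate, at -0.25 (limma adjusted p = 0.0241) and -0.23 (limma adjusted p = 0.0256) for Ppargc1a and at 0.47 (limma adjusted p = 0.0141) and 0.42 (limma adjusted p = 0.0196) for Esrrg. In a bulk sample, fewer cells of a type and less RNA per cell cannot be told apart.

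The order of the 8 group medians differed from gene to gene. The highest and lowest group of each gene were picked from these same values, so the ratios between them are a description without a test. Ppargc1a was highest in running control males and lowest in locked HuRm-/- females, a ratio of medians of 1.70. From high to low its groups were running and locked control males, running control females, running and locked HuRm-/- males, locked control females, then running and locked HuRm-/- females, and 6 of the 7 neighbouring pairs overlapped. Ppargc1b was highest in running and lowest in locked control females (ratio 1.56). Perm1, Ppara and Tfam were also highest in running control males, with ratios of 1.93, 1.49 and 1.19 to their lowest group, Esrrg was highest in running HuRm-/- females (1.96), Esrra and Nrf1 in locked control males (1.45 and 1.22), and Ppard in running HuRm-/- females (1.39). For all of these 8 genes every neighbouring pair overlapped.

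Within groups, the levels of some of the 9 genes rose and fell together from mouse to mouse. Over 36 pairs, with values centred on group means, 2 passed by both r and rho after adjustment for the 36. Esrrg and Ppara had r = 0.47 (adjusted permutation p = 0.0148, rho = 0.50 with adjusted permutation p = 0.0133, n = 56 mice), and Esrrg and Perm1 had r = 0.47 (adjusted permutation p = 0.0211, rho = 0.45 with adjusted permutation p = 0.0190). Without the 2 mice farthest from the Esrrg median r was 0.49 and 0.44. Within the 28 males r was 0.34 (permutation p = 0.0853) and 0.36 (permutation p = 0.0729), and within the 28 females 0.59 (permutation p = 0.00196) and 0.57 (permutation p = 0.00799), so each was positive in both sexes and past an unadjusted 0.05 in females alone. By rho, 3 more pairs passed that did not pass by r. They were Ppargc1a and Perm1 (r = 0.37, adjusted permutation p = 0.0546, rho = 0.42 with adjusted permutation p = 0.0190), Ppargc1a and Esrrg (r = 0.31, adjusted permutation p = 0.143, rho = 0.44 with adjusted permutation p = 0.0190) and Esrra and Perm1 (r = 0.39, adjusted permutation p = 0.0697, rho = 0.42 with adjusted permutation p = 0.0212). Ppargc1a and Ppargc1b were not correlated by this test (r = -0.14, adjusted permutation p = 0.638). The mean of erythroid markers, with group means removed, had r = 0.42 with Esrrg, 0.42 with Ppara and 0.07 with Perm1. The part of these markers in the correlations was not tested.

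**Figure D5:**
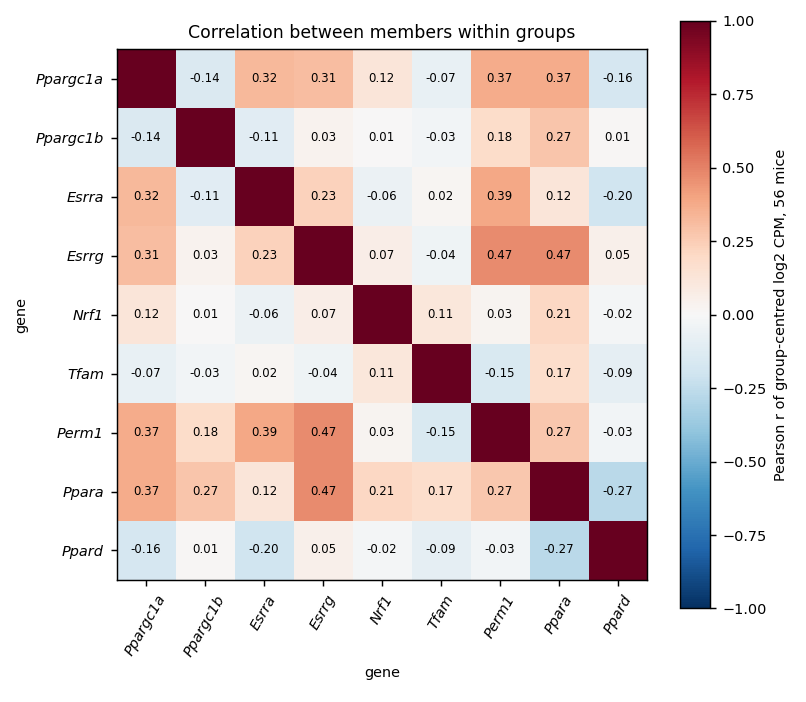
Pearson r between each pair of the 9 genes over 56 mice, from log2 CPM centred on group means, on a colour scale from -1 (blue) to 1 (red). The values lie between -0.27 (Ppara and Ppard) and 0.47 (Esrrg and Ppara).

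Over all 56 mice and 8456 genes with a mean of at least 5 CPM, the transcripts most like each gene were as follows, described without a test. Ppargc1a was most like Trak2 (r = 0.81), which links mitochondria to motor proteins, and Lpin1 (0.77), a phosphatidate phosphatase that also acts as a coactivator, was among the next. Perm1 was most like Fitm2 (0.81), a lipid droplet protein, Pla2g12a (0.81) and Mfn1 (0.81), a mitofusin. Esrra was most like Sdhc (0.71), a subunit of complex II, Vegfa (0.70), the angiogenic factor, and Gfm1 (0.68), a mitochondrial elongation factor. Esrrg was most like Rhou (0.75), Vgll2 (0.73) and P2ry1 (0.73). Ppargc1b was most like Gm44694 (0.74), Sfswap (0.70) and Pde4a (0.69), and Ppara like Dusp18 (0.65), Pank1 (0.65), a kinase of coenzyme A synthesis, and Lpl (0.64), lipoprotein lipase. The partners of Tfam (Smndc1, Dcaf4 and Tle1, up to 0.63), Ppard (Psmd11, Ube4a and Lrba, up to 0.57) and Nrf1 (Papola, Zc3h4 and Yap1, up to 0.53) had lower values. With group means removed, Fitm2 and Mfn1 each had 0.72 with Perm1 and Trak2 had 0.56 with Ppargc1a, while Lpin1 had 0.47 with Ppargc1a, P2ry1 0.47 with Esrrg, and Sfswap and Pde4a 0.42 and 0.40 with Ppargc1b.

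The targets and partners of these regulators were counted from lists of the pathway. These lists were chosen with earlier results of these data known, so the counts are a description without a test. Of 44 ERR and PGC-1 target genes, 13 rose with the wheel and 0 fell (median log2 fold change 0.09, 0.01 over all genes), against the 3.42% and 2.54% of all genes given above. They included Ldhb, lactate dehydrogenase B (0.50, limma adjusted p = 3.67e-08, above the locked median in 28 of 28 running mice), Ckmt2, mitochondrial creatine kinase (0.44, limma adjusted p = 5.10e-07, 26 of 28), and Mb, myoglobin (0.40, limma adjusted p = 1.59e-07, 26 of 28). Of 34 measured PPAR targets 10 rose and 0 fell (median 0.16), among them Lpl (0.38, limma adjusted p = 3.07e-05, 26 of 28), Fabp3, the muscle fatty acid binding protein (0.33, limma adjusted p = 0.00123, 24 of 28), and Hadhb, of the trifunctional protein of β-oxidation (0.28, limma adjusted p = 7.21e-05, 26 of 28). Among 49 other regulators and partners 3 rose, namely Esrrb, the third ERR (0.42, limma adjusted p = 0.0234, 25 of 28), Mef2d (0.17, limma adjusted p = 0.000305, 24 of 28) and the coactivator Ncoa1 (0.17, limma adjusted p = 0.0254, 23 of 28). Of 24 factors of mitochondrial DNA transcription, replication and translation, the group to which Tfam belongs, 0 rose and 1 fell, Slirp (-0.19, limma adjusted p = 0.0119, below the median in 21 of 28).

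The same lists were counted for the label, from the same 56 mice, again as a description. With slow-fibre markers as a covariate, only 1 gene of all those tested was called for the label, as given above. Of the ERR and PGC-1 targets 18 were lower and 0 higher (median -0.10, 0.01 over all genes, 7.41% of all genes lower), with Ckmt2 lowest (-0.34, limma adjusted p = 5.23e-05, 24 of 28 mice). Of the PPAR targets 5 were lower and 0 higher (median -0.04), with Pex11a, a peroxisomal protein, lowest (-0.35, limma adjusted p = 0.000556, 23 of 28). Other regulators had 7 lower and 2 higher, with Prkab2, a subunit of AMP-activated kinase, at -0.40 (limma adjusted p = 1.40e-05, 24 of 28) and Hdac5 at 0.16 (limma adjusted p = 0.0175, 24 of 28). Mitochondrial DNA factors had 5 lower and 1 higher, with Mgme1 at -0.30 (limma adjusted p = 0.000952, 25 of 28) and Polg2 at 0.53 (limma adjusted p = 0.0204, 25 of 28). No gene of the 4 lists was called for a label-by-wheel difference (0 of 151 tested).

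In the annotation (GRCm38, GENCODE M21) the 9 genes lie on separate chromosomes, and some overlap annotated neighbours. Ppargc1a (chromosome 5, 51454250 to 51567726) overlaps Gm42614, Gm42615 and Gm43605 on the same strand, so reads there could be counted to either. Esrra (chromosome 19, 6910977 to 6921813) overlaps Trmt112, and Esrrg (chromosome 1, 187608791 to 188214885) the antisense gene Gm36388. Whether counting used strand is not given in the sources used here. Ppargc1b (chromosome 18, 61298136 to 61400431) hosts Mir378a, and Perm1 lies on chromosome 4 (156215868 to 156221307). Nrf1 (chromosome 6, 30047988 to 30153458), Tfam (chromosome 10, 71225464 to 71238280), Ppara (chromosome 15, 85734983 to 85802819) and Ppard (chromosome 17, 28232700 to 28301474) overlap no other gene of the table. All 9 are protein coding. The table lists Ppargc1a as ENSMUSG00000029167, Ppargc1b as ENSMUSG00000033871, Esrra as ENSMUSG00000024955, Esrrg as ENSMUSG00000026610, Nrf1 as ENSMUSG00000058440, Tfam as ENSMUSG00000003923, Perm1 as ENSMUSG00000078486, Ppara as ENSMUSG00000022383 and Ppard as ENSMUSG00000002250.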

How the data were processed

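Gastrocnemius RNA of 56 mice was sequenced by the authors, who counted reads per gene and deposited raw counts without normalization. Submitters' processing notes name GRCm38 (mm10), R 4.0.3 and edgeR 3.38.4. The aligner and the use of strand are not given in the sources used here. The labels name a kit that reads transcript 3′ ends and the paper a stranded total RNA kit, and this affects which part of a gene was counted. Counts were filtered with filterByExpr and then TMM-normalized (edgeR 4.0.16). They were tested with voom and limma 3.58.1 in R 4.3.3, with 8 group means and Benjamini-Hochberg adjustment over 14321 genes. CPM of single genes are counts per 1e+06 after TMM, and log2 CPM used a prior count of 2. Marker sums and marker means, also as covariates, used counts per 1e+06 of the library total without TMM. For the means, 0.5 was added before log2. The table's smallest row total was 168, so low genes had been removed. Between mice of a group, chi-square per degree of freedom was 3.55 to 49.8, and each mouse was 1 replicate. Correlations used 1e+05 permutations of mice within groups. Named genes were the 9, Elavl1, the 3 largest rises and falls with the wheel and the largest of each with the label among called genes of each list at 1 CPM or more, and the 3 most alike genes, of which 1 is not reported here. The skeletal muscle, slow-fibre, adipocyte and liver marker lists, the pathway lists and the 9 genes were chosen with earlier results of these data known. On simulated counts for the wheel contrast over 14161 genes, the test recovered 77 of 100 changes of 0.5 on the log2 scale and 94 of 100 of 1, with 9 false calls among 180. Changes below 0.5, the size of the averaged wheel changes of the 9 genes, and other contrasts were not simulated. Alternatives were other normalizations (DESeq2 1.42.0 size factors, upper quartile), tests, filters, weights, sample sets, marker covariates, a replicate block and leaving out each mouse. The fit without running control males 10 and 13 was chosen after seeing the data.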

Additional observations from a re-analysis of the deposited data

Results flagged for a closer look

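In 5 of 72 sets of 7 mice, 1 for each gene and group, a mouse lay far from the other 6. Chance flags about 1 in 20 such sets. Running control female 9 was highest in its group for Ppargc1a (66.1 CPM, next 53.4) and for Esrra (37.9 CPM, next 29.7). Running control male 13, which also had the lowest Elavl1 of the 56 mice, was lowest for Perm1 (52.2 CPM, next 85.0). Running HuRm-/- male 21 was highest for Ppara (16.6 CPM, next 13.8), and locked HuRm-/- female 30 was highest for Ppard (8.94 CPM, next 7.49). The wheel difference of Ppargc1b was larger in females than in males by 0.56 on the log2 scale, by a test of the difference itself (limma adjusted p = 3.86e-05).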

How the results depend on the processing

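Of the 9 genes, the wheel raised 4 in the reported fit and 2 with liver markers as a covariate. The label count was 4 as reported, 2 with upper-quartile scaling and 0 with slow-fibre markers as a covariate. The cause was not tested. Leaving out each mouse in turn gave 3 to 4 genes for the wheel, 4 to 6 calls for the wheel within the 4 groups of sex and label (5 as reported), 0 to 0 for wheel by label, 2 to 4 for the label and 2 to 4 for sex (2 as reported). The label count was 2 without any 1 of 18 mice, locked control male 29, running control males 10 and 26, locked HuRm-/- males 9, 11, 23 and 24, running HuRm-/- males 1 and 2, locked control female 18, running control females 9, 26 and 27, locked HuRm-/- females 19 and 34, and running HuRm-/- females 2, 21 and 22. The sex count was 4 without locked control male 20, running HuRm-/- male 2, running control female 9 or running HuRm-/- females 7 or 10. No direction of a called gene reversed under any alternative, and of single-gene results under the other settings 1316 kept their side of the threshold, 9 gained and 16 lost the call.

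Mouse numbers recurred only between sexes. The 12 pairs that also shared genotype and wheel correlated at -0.20 to 0.18, 5 of them above 0.1. These were not compared with pairs of unlike number, so whether the mice share more than a number was not tested. A replicate block on that number (consensus correlation 0.02) left the counts at 4 for the wheel, 5 within groups, 0 for wheel by label, 4 for the label and 2 for sex. Over all genes the wheel called 854, with 564 (liver covariate) to 1331 (quality weights). The calls within groups ran from 120 (without mice 10 and 13) to 1046 (quality weights) in male controls (464 as reported), 292 (adipocyte covariate) to 1642 (limma trend) in female controls (1251), 2 (compared groups only) to 226 (DESeq2) in male HuRm-/- mice (6) and 161 (compared groups only) to 683 (DESeq2) in female HuRm-/- mice (551). The other counts were 0 to 22 for wheel by label (1), 1028 (adipocyte covariate) to 2406 for wheel by sex (1961), 1 (slow-fibre covariate) to 2276 for the label (1695) and 1389 (adipocyte covariate) to 5086 for sex (4720). A fit of only the compared groups was not run for averaged contrasts, which use all groups. Ppard and Nrf1 had the fewest counts, as few as 36 and 53 in a mouse.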

Other observations

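Markers of other cell types also differed. Of 5 erythroid markers, 5 were higher in females, and for 4 of them the wheel response was called as lower in females than in males. Of 8 leukocyte and macrophage markers tested, 6 were higher in females and for 6 the wheel response was lower in females. Over all genes, 15.8% were called as higher in females, and for 6.9% the wheel response was called as lower in females. Of 4 brown adipocyte markers, 3 were in the table, at a summed 0.352 to 5.21 CPM, and Ucp1 was not. Across 56 mice with group means removed, the mean of the erythroid markers had r = 0.42 with Esrrg and 0.42 with Ppara, and that of the slow-fibre markers 0.40 with Ppargc1b and 0.40 with Ppara, given as a description without a test.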
